A study of Mus musculus with 4 samples.

Results

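The nexin-dynein regulatory complex (N-DRC) and the axonemal ruler were followed through 10 genes of the 22311 gene symbols measured in mouse testes. The genes were chosen by name, 8 for subunits of the complex (Ccdc164, Ccdc65, Ccdc135, Lrrc48, Gas8, Tcte1, Iqca and Fbxl13) and 2 for the ruler (Ccdc39 and Ccdc40). RNA was sequenced from whole testes of 24-day-old males, with 2 Rfx2-/- samples (mutant 1 and 2) and 2 control samples (control 1 and 2), to ask which genes depend on RFX2, a winged-helix transcription factor of germ cells. In the mutant allele, made from a single clone of targeted embryonic stem cells, a neomycin-resistance cassette stands in place of the pair of exons that encode the DNA binding domain, and the allele is carried by all cells of the animal and not by germ cells alone. The labels call the controls wild type and the strain DBA, while the study's methods describe heterozygous controls on a mixed 129/s6 and C57BL/6 background, so the control samples may carry a mutant allele. Transcripts of Ccdc164 and Ccdc135 fell to a few percent or less of the control level, those of Ccdc65 and Ccdc40 fell several-fold, and those of Gas8, Ccdc39 and Lrrc48 fell by smaller amounts. For Tcte1, Iqca and Fbxl13 no difference passed the test.

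The axoneme of a motile cilium or sperm flagellum carries its motors and regulators in a repeat along each doublet microtubule. The N-DRC is the crosslink between neighbouring doublets, and it passes regulatory signals to the dynein arms. CCDC39 and CCDC40 form the ruler that sets the length of this repeat and the places where the N-DRC and the inner dynein arms attach, and loss of either protein in humans causes primary ciliary dyskinesia, a disorder of motile cilia and sperm tails. In the testis these genes are used when round spermatids build their flagellum.

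RFX proteins bind the X-box, an imperfect inverted repeat whose arms end in letters such as AGCAAC. The positions and sequences around the annotated starts were read from the mouse build NCBIM37 (mm9), the build to which the reads were aligned. Each sequence runs from 150 bases before the annotated start through the first 30 bases of the transcript, 5′ to 3′ on the strand of the gene. Positions are counted from 0 at the start base. Ccdc164 and Ccdc135 are shown because they fell furthest and hold no X-box motif, and the capitals mark single arms in them. The other sequences are shown because they hold the whole motif within the printed stretch, marked by capitals. For Ccdc40 an internal start was printed, chosen because it directly follows the match. The stretch at the most upstream start of Ccdc40 holds no match, and the other genes are printed at their most upstream start only. The motif is without a mismatch in Ccdc40, Iqca and Fbxl13, and with 1 mismatch in Ccdc65 and Gas8.
Ccdc164, chr5:30607764-30607943, plus strand: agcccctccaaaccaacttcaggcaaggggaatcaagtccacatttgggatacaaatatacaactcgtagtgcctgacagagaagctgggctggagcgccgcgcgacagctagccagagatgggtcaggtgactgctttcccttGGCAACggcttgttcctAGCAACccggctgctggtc
Ccdc135, chr8:97578853-97579032, plus strand: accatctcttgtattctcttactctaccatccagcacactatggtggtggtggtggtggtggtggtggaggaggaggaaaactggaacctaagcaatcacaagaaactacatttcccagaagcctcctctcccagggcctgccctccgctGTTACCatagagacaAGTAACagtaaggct
Ccdc40, internal start, chr11:119090293-119090472, plus strand: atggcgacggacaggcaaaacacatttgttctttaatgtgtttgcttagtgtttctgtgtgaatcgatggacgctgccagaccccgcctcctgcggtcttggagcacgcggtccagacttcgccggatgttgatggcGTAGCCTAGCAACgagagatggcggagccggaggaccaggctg
Ccdc65, chr15:98538475-98538654, plus strand: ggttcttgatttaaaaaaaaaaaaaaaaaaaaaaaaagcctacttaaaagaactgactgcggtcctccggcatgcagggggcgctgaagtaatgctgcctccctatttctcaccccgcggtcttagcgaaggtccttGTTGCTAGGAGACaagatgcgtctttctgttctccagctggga
Gas8, chr8:126042689-126042868, plus strand: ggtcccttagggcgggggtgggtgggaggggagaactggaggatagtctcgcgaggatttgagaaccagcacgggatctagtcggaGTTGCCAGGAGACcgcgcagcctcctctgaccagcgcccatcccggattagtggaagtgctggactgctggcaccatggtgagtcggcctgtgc
Iqca, chr1:92049947-92050126, minus strand: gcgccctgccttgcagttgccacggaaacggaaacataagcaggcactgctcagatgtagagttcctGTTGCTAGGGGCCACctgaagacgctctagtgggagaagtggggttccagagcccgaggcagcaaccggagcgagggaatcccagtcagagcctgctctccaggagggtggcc
Fbxl13, chr5:21151394-21151573, minus strand: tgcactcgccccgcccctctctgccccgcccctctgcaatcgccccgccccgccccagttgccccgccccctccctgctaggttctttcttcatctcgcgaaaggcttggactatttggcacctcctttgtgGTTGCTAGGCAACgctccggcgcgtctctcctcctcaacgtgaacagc

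The X-box motif with a gap of 0 to 3 bases was searched on both strands within 1000 bases of the most upstream start. Without a mismatch it was found in 3 of the 10 genes, against 580 of the 12620 tested genes with a position (4.60%). In Fbxl13 it lay at -18 to -6 and in Iqca at -83 to -69, both on the opposite strand. Ccdc40 held it at 544 to 556 and again at 867 to 880, and the first of these ends at the base before the start of another annotated transcript at chr11:119090443. With 1 mismatch allowed, 8 of the 10 genes held a match, as did 6055 of the 12620 tested genes (48%), so that search separates few genes. A narrower window ran from 250 bases before the start to 50 after. There 5 of the 10 genes held a match with up to 1 mismatch, against 1613 of the 12620 (12.8%). Without a mismatch 2 of the 10 did, against 248 (1.97%). Among the matches with 1 mismatch, that in Ccdc65 covered -13 to -1 and the nearest in Gas8 covered -64 to -52. Ccdc39 held a match at 17 to 30 and Lrrc48 at 53 to 65, which reach past a stretch printed from the most upstream start. Counted from its nearest annotated start, the match in Ccdc39 lay at 8 to 21, so the choice of start left it out. No match to the X-box motif was found in Ccdc164 or Ccdc135 even with 1 mismatch. Each of them holds 2 single arms in the printed stretch, counted on either strand. An arm was taken as AGCAAC and its spellings GGCAAC as seen in Ccdc164, AGTAAC as seen in Ccdc135, and GGTAAC as seen in Ccdc39, which were chosen after the sequences had been seen. Of the tested genes, 22.8% hold at least 1 such arm in a stretch of that length and 4.12% hold at least 2. A match is a run of letters and not a binding site, and no match says only that the letters are not in the window.

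**Figure D1:**
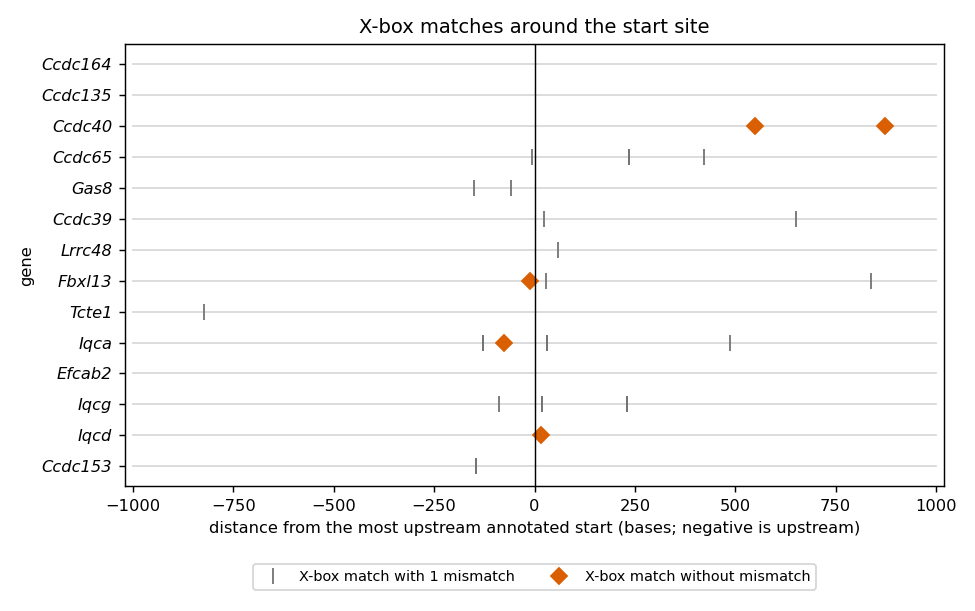
Matches to the X-box motif around the annotated start of each gene (x axis, bases from the most upstream start, 1000 on each side; y axis, gene), by number of mismatches. Of the 10 genes and the 4 further N-DRC subunits plotted, Ccdc40, Iqca, Fbxl13 and Iqcd have a match without a mismatch, and the rows of Ccdc164, Ccdc135 and Efcab2 are empty.

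In the same build, Ccdc164 covers chr5:30607914-30668993, Ccdc65 chr15:98538625-98553757, Ccdc135 chr8:97579003-97602041, Lrrc48 chr11:60166827-60207843 and Gas8 chr8:126042839-126060422, all on the plus strand. Tcte1 lies at chr17:45660383-45679628 and Ccdc40 at chr11:119089886-119126550 on the plus strand, and Iqca at chr1:91938707-92049976, Fbxl13 at chr5:20989665-21151423 and Ccdc39 at chr3:33711284-33743232 on the minus strand. Tcte1 shares its chromosome with Rfx2, at a distance of 11.24 Mb. Exons on the opposite strand cover 34.1% of the exon bases of Tcte1 (Gm17441), 17.5% of those of Ccdc39 (Ttc14) and 1.72% of those of Fbxl13 (Lrrc17). Whether the counting used strand is not given in the sources used here, so reads from such pairs may not be told apart. Ttc14 itself had an FPKM of 3.42 to 5.19 in the 4 samples, far below Ccdc39, whose lowest value was 31.2.

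Values are FPKM, fragments per kilobase of transcript and per M mapped fragments, so levels of different genes can be set side by side. Where a pair of values is given for a genotype, sample 1 comes before sample 2. The confidence bounds of the values correspond to 17.2 to 20.4 M fragments per sample, and 12557 to 12942 genes per sample reached an FPKM of 1. A first difference between the samples lay in the germ cell markers. The sum of 8 elongating spermatid markers, among them the protamines, was 1220 in mutant 1, against 6281 in mutant 2, 7784 in control 1 and 5284 in control 2. All 8 markers were below both controls in mutant 1, and 2 of 8 were in mutant 2. Of 6 round spermatid markers, 5 were below both controls in mutant 1 and 0 in mutant 2, with sums of 299 and 526 against 420 and 380. The share of all genes that lie below both controls in a single mutant was not computed, so these counts have no background. Summed levels in mutant 1, mutant 2, control 1 and control 2 were 346, 262, 263 and 310 for 5 spermatocyte markers and 29.2, 25.5, 20.8 and 31.9 for 5 spermatogonial markers. Sums ranged from 43.4 to 64.5 over 7 Sertoli cell markers, from 74.3 to 106 over 4 peritubular myoid markers, from 9.52 to 13.7 over 5 macrophage markers, from 139 to 454 over 7 Leydig cell markers and from 0 to 7.63 over 5 epididymis markers. In none of these lists did a gene pass the test. In a whole testis, fewer cells of a type and less RNA per cell cannot be told apart.

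Rfx2 itself had an FPKM of 36.7 and 39.8 in the mutants and 123 and 89.4 in the controls. Both mutants were below both controls, at 36.0% of the control mean. The difference on the log2 scale was -1.43 (95% confidence interval -1.88 to -0.98, adjusted p = 0.00617, limma with Benjamini-Hochberg adjustment), and without control 1 it was -1.20 (adjusted p = 0.0628). The value is taken over the whole gene, of which the deleted exons are a part, so it is a limited check of the labels. About 2186 and 2348 fragments lay behind the mutant values, and about 11000 and 5406 behind the control values. The controls thus differed more in fragments than in FPKM, and the reason was not tested.

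Of the 10 genes, 7 passed the test with a lower level in the mutants and 0 with a higher level. Leaving out 1 sample gave 4 called genes without control 1, 5 without control 2, 7 without mutant 1 and 8 without mutant 2. Over the 12985 genes tested, 2.52% were lower and 0.308% were higher at the same threshold of 0.05. The same 7 genes had both mutants below both controls, as did 15.2% of all genes tested, and 1 gene, Iqca, had both mutants above both controls, as did 16.3%. As a median, the log2 fold change over these 10 genes came to -1.28, against 0.03 over all genes tested. Ccdc164 reached the filter of an FPKM of 1 in 1 mutant sample and Ccdc135 in none, so both passed it through the controls, and the other 8 genes reached it in all samples. The fold changes are differences of log2(FPKM + 1), which understates the change of low genes. The samples of a genotype are described as independent biological samples, and with 2 in each group the p-values rest on little replication. In a fit that leaves out 1 sample, the spread comes from the complete group alone. A call in such a fit is no test of the lone sample.

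**Figure D2:**
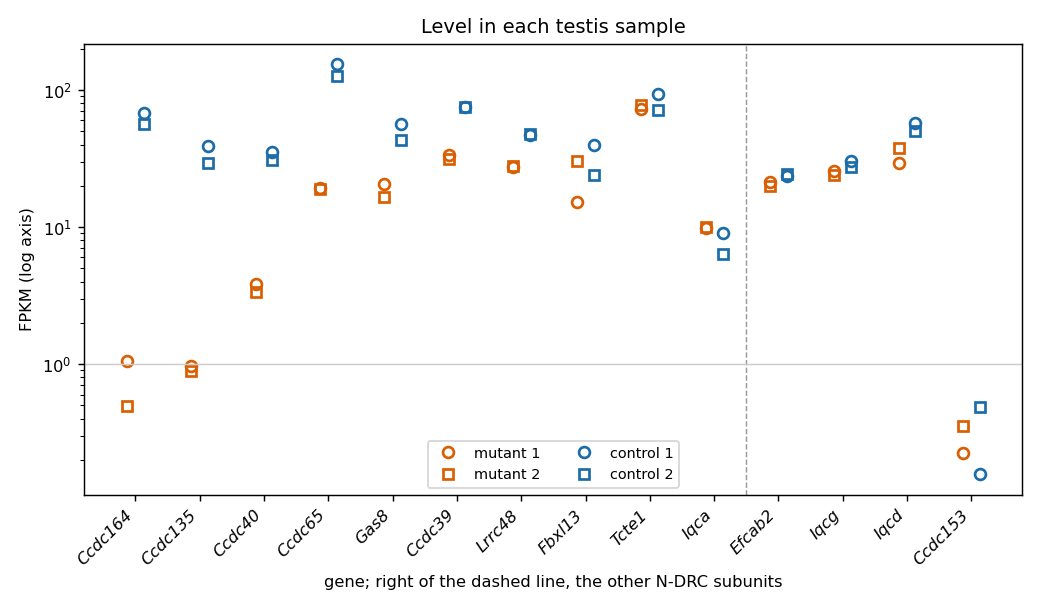
FPKM (y axis, log scale) of each gene (x axis) in mutant 1 and 2 and control 1 and 2, 1 point per sample, with the 4 further N-DRC subunits right of the dashed line. Ccdc164 and Ccdc135 lie near or below 1 in the mutants and between 29.1 and 67.8 in the controls, while the points of Tcte1 and Fbxl13 overlap.

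The scaffold of the N-DRC, which anchors it to the doublet, is built of DRC1 (encoded by Ccdc164), DRC2 (Ccdc65) and DRC4 (Gas8), and all 3 transcripts fell. Ccdc164 had an FPKM of 1.05 and 0.494 in the mutants and 67.8 and 56.8 in the controls. The mutant values rest on about 72 and 29 fragments, the control values on about 4457 and 3955. The mutant mean was 1.24% of the control mean, the level was 80.9-fold lower (59.5-fold in mutant 1 and 126-fold in mutant 2), and the log2 fold change was -5.17 (95% confidence interval -5.71 to -4.64, adjusted p = 2.61e-05, limma). It ranked 11 from the lowest among the 12985 genes tested.

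Ccdc65 was the most abundant of the 10 transcripts in the controls, with 153 in control 1 and 127 in control 2. It was at 19.1 in mutant 1 and 18.8 in mutant 2, nearly the same level in both and 7.39-fold below the control mean. The log2 fold change was -2.82 (interval -3.20 to -2.43, adjusted p = 7.17e-05, limma). The region of its start that the study amplified after chromatin immunoprecipitation, chr15:98538316-98538694, contained the 1-mismatch match shown above and no match without a mismatch. From this assay, made on germ cells of adult wild-type mice, the study reports Ccdc65 as a target of RFX2. Its real-time PCR of testes covered Ccdc65, Ccdc164, Ccdc135, Ccdc39 and Ccdc40. The study reports most genes so measured as lower in mutants and names none of these among the exceptions. Gas8 had an FPKM of 20.5 and 16.5 in the mutants and 56.0 and 43.1 in the controls. Both mutants were below both controls, with a mutant mean of 37.3% of the control mean and a log2 fold change of -1.37 (interval -1.83 to -0.91, adjusted p = 0.00844, limma). Without control 1 the call for Gas8 was lost (log2 fold change -1.19, adjusted p = 0.13, limma), and with all 4 samples it held in 8 of 12 other settings.

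Ccdc135 encodes DRC7, a subunit of the linker between doublets. Its FPKM was 0.972 and 0.887 in the mutants, resting on about 77 and 60 fragments, and 39.0 and 29.1 in the controls. The mutant mean was 2.73% of the control mean, 36.6-fold lower, with a log2 fold change of -4.17 (interval -4.69 to -3.65, adjusted p = 5.05e-05, limma). Together with Ccdc164 it stood apart from the other 8 genes, of which the lowest mutant value was 3.37, in Ccdc40.

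Lrrc48 encodes DRC3, a leucine-rich repeat subunit. It had an FPKM of 27.2 and 27.9 in the mutants and 47.0 and 48.1 in the controls. The spread within each genotype was small and the groups did not overlap, with a mutant mean of 58.0% of the control mean. The log2 fold change was -0.76 (interval -1.12 to -0.41, adjusted p = 0.0454, limma), just inside the threshold. This call was lost without control 1 and without control 2, where the log2 fold change hardly moved, at -0.78 and -0.75. The spread in those fits came from the mutants alone. With all 4 samples the call held in 3 of 12 other settings.

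Tcte1 encodes DRC5, needed for sperm motility in the mouse. Its FPKM was 72.6 and 77.3 in the mutants and 93.5 and 71.8 in the controls, so the groups overlapped. The log2 fold change of -0.13 did not pass the test (interval -0.55 to 0.29, adjusted p = 1, limma). Without control 1 the value was 0.060. The lower end of the interval lies above the log2 fold changes of all 7 genes that fell, but the interval overlaps that of Lrrc48 (-1.12 to -0.41). The difference between Tcte1 and these genes was not tested.

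Iqca encodes DRC11, and Fbxl13, an F-box and leucine-rich repeat gene, encodes DRC6. Iqca was the least abundant of the 10 transcripts in the controls, with 9.05 in control 1 and 6.32 in control 2, and it was at 9.77 in mutant 1 and 9.98 in mutant 2. Both mutants were above both controls, with control 1 close to the mutants, and the log2 fold change of 0.34 did not pass the test (interval -0.18 to 0.86, adjusted p = 1, limma). Fbxl13 was at 15.1 and 30.4 in the mutants and 39.7 and 24.1 in the controls. Mutant 2 lay between the controls and mutant 1 below both, and the log2 fold change was -0.51 (interval -1.29 to 0.28, adjusted p = 1, limma). Against the control mean, on the log2 scale, mutant 1 was at -0.99 and mutant 2 at -0.03. Mutant 1 is also the sample with low spermatid markers. The median log2 difference from the control mean was -1.99 in mutant 1 and 0.08 in mutant 2 for the elongating spermatid markers. For the round spermatid markers it was -0.47 and 0.30. The part of these in the value of Fbxl13 was not tested.

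Both genes of the ruler fell, by unequal amounts. Ccdc40 had an FPKM of 3.82 and 3.37 in the mutants and 35.5 and 30.9 in the controls. The mutant mean was 10.8% of the control mean, 9.25-fold lower, and the log2 fold change was -2.90 (interval -3.34 to -2.45, adjusted p = 0.000143, limma). Ccdc39 was at 33.7 and 31.2 in the mutants and 74.9 and 75.7 in the controls, or 43.1% of the control mean. Its log2 fold change was -1.19 (interval -1.55 to -0.83, adjusted p = 0.005, limma). The call was lost without control 1 (-1.20) or without control 2 (-1.18), in fits whose spread came from the mutants alone. The ratio of Ccdc39 to Ccdc40 was 8.83 and 9.24 in mutant 1 and 2, against 2.11 and 2.45 in control 1 and 2. The ratios did not overlap, which restates the unequal falls. The exact two-sided permutation test of 2 against 2 samples gave p = 0.333, the smallest value this design allows.

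**Figure D3:**
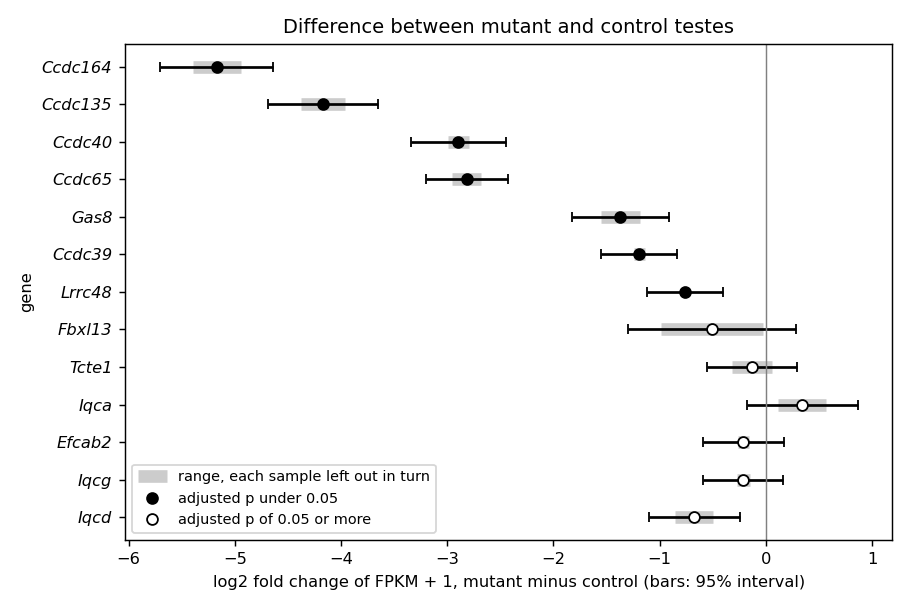
Log2 fold change of FPKM + 1, mutant minus control (x axis), for the 10 genes and the further N-DRC subunits tested (y axis), with 95% confidence intervals from limma (bars), the range over fits that leave out each sample in turn (grey) and filled points for an adjusted p under 0.05. The estimates run from -5.17 for Ccdc164 to 0.34 for Iqca, and the intervals of Tcte1, Iqca, Fbxl13, Efcab2 and Iqcg cross 0.

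The values of the 10 genes in each mutant can be set beside the elongating and round spermatid markers, most of which were low in mutant 1. On the log2 scale, mutant 1 and mutant 2 lay at -4.94 and -5.40 from the control mean for Ccdc164, at -4.14 and -4.20 for Ccdc135, at -2.81 and -2.83 for Ccdc65 and at -2.83 and -2.97 for Ccdc40. They lay at -1.22 and -1.52 for Gas8, at -1.14 and -1.25 for Ccdc39 and at -0.78 and -0.75 for Lrrc48. These 7 genes are the ones that passed a test which favours a small spread between replicates. Of the others, Fbxl13 lay at -0.99 and -0.03, Tcte1 at -0.17 and -0.08 and Iqca at 0.33 and 0.36. Each value rests on a single mutant sample, and the part of the spermatid markers in these values was not tested.

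**Figure D4:**
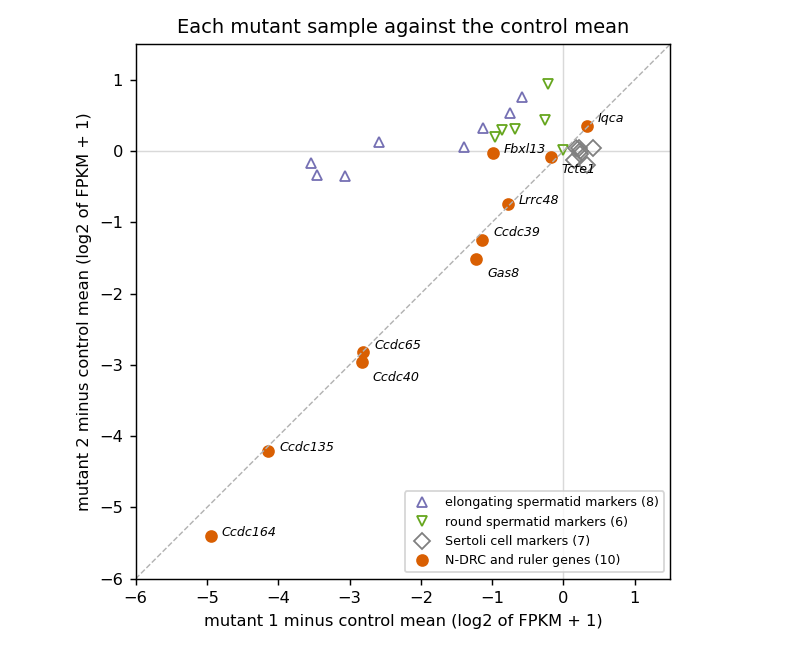
Log2 difference of FPKM + 1 from the control mean in mutant 1 (x axis) and mutant 2 (y axis) for the 10 genes and for markers of elongating spermatids, round spermatids and Sertoli cells. The 7 genes that fell, selected by a test that favours similar replicates, lie close to the dashed line of equal values. Fbxl13 (-0.99 and -0.03), the elongating spermatid markers (medians -1.99 and 0.08) and the round spermatid markers (medians -0.47 and 0.30) lie left of it.

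The genes stood in a different order of level in each genotype. In the controls the order by mean FPKM was Ccdc65, Tcte1, Ccdc39, Ccdc164, Gas8, Lrrc48, Ccdc135, Ccdc40, Fbxl13 and Iqca, from 140 down to 7.68. The ranges of Tcte1 and Ccdc39 overlapped in the controls, as did those of Gas8 and Lrrc48, of Ccdc135 and Ccdc40, and of Ccdc40 and Fbxl13. In the mutants the order was Tcte1, Ccdc39, Lrrc48, Fbxl13, Ccdc65, Gas8, Iqca, Ccdc40, Ccdc135 and Ccdc164, from 74.9 down to 0.770, with overlap between neighbours from Lrrc48 to Gas8 and between Ccdc135 and Ccdc164. The 10 genes summed to 204 and 217 in mutant 1 and 2, against 616 and 513 in control 1 and 2. Tcte1 made up 35.6% of that sum in each mutant and 15.2% and 14.0% in the controls. Within the scaffold, the ratio of Ccdc65 to Ccdc164 was 18.3 and 38.2 in the mutants against 2.26 and 2.24 in the controls, and the ratio of Gas8 to Ccdc164 was 19.6 and 33.4 against 0.826 and 0.760. The ratio of Tcte1 to Ccdc135 was 74.7 and 87.1 against 2.40 and 2.46, that of Tcte1 to Ccdc164 was 69.4 and 157 against 1.38 and 1.27, and that of Lrrc48 to Ccdc135 was 28.0 and 31.5 against 1.21 and 1.65. None of the 6 ratios computed, the ruler included, overlapped between genotypes, and each gave p = 0.333 in the exact two-sided permutation test. In every ratio the denominator is a gene that fell further than the numerator. Their lack of overlap therefore restates the fold changes given above. The share of all gene pairs without overlap was not computed.

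The remaining known subunits are DRC8 (Efcab2), DRC9 (Iqcg), DRC10 (Iqcd) and DRC12 (Ccdc153), and none of them passed the test. Efcab2, which carries EF-hands, was at 21.3 and 19.8 in mutant 1 and 2 against 23.4 and 24.5 in control 1 and 2. Iqcg, an IQ motif gene needed for spermiogenesis, was at 25.5 and 24.0 against 30.1 and 27.6. On the log2 scale the difference was -0.21 for each (adjusted p = 1, limma). Iqcd, a further IQ motif gene, was at 29.4 and 38.0 against 57.8 and 50.5, with a log2 fold change of -0.68 (interval -1.10 to -0.25, adjusted p = 0.155, limma). Without mutant 2 the difference was -0.86. Both mutants were below both controls for these 3 genes, as they were for 15.2% of all genes tested. Iqcd was also the only one of the 4 with an X-box motif without a mismatch, at 9 to 21. Ccdc153 stayed under the filter, with 0.225, 0.351, 0.157 and 0.483 in mutant 1, mutant 2, control 1 and control 2, from 4 to 13 fragments. Over the 12 subunits of the complex, 5 were called lower of the 11 tested.

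Other structures on the same repeat held genes that fell and genes that did not. Of 11 radial spoke genes tested, 3 fell (Rsph9, Dnajb13 and 4932425I24Rik, also named Maats1), with a list median of -0.44. Of 8 inner dynein arm genes tested, 4 fell (Dnahc10, Dnali1, Dnahc6 and Wdr78), with a median of -0.68. Of 11 outer dynein arm and docking genes tested, 3 fell (Dnaic2, Armc4 and Ttc25), with a median of -0.38. Over the whole N-DRC, 5 of the 11 subunits tested fell, with a median of -0.68, and both ruler genes fell. The 8 N-DRC genes described first held these 5 and had a median of -1.07. Over all 12985 genes tested, 2.52% fell and the median was 0.03. The next lowest genes of each list were 4932425I24Rik at -2.82, Dnali1 at -2.04 and Armc4 at -2.58 on the log2 scale, and the lowest had mutant values of 1.05 or less. Rsph9, a radial spoke head gene, was at 0.940 and 1.05 in mutant 1 and 2 against 96.8 and 72.9 in control 1 and 2 (log2 fold change -5.41, adjusted p = 2.14e-05, limma). Dnaic2, an outer arm intermediate chain, was at 0.286 and 0.160 against 43.1 and 28.4 (log2 fold change -4.88, adjusted p = 4.3e-05, limma). Dnahc10, an inner arm heavy chain, was at 0.533 and 0.678 against 10.7 and 9.14 (log2 fold change -2.76, adjusted p = 0.000318, limma). At the other end, Dnaic1, the partner chain of Dnaic2, was at 72.1 and 85.0 against 51.4 and 44.1, a log2 fold change of 0.71 that did not pass the test (adjusted p = 0.0998, limma). Rsph3a and Wdr63 had log2 fold changes of -0.03 and 0.32, with adjusted p = 1 and 0.722 from limma. The difference between the lists was not tested.

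**Figure D5:**
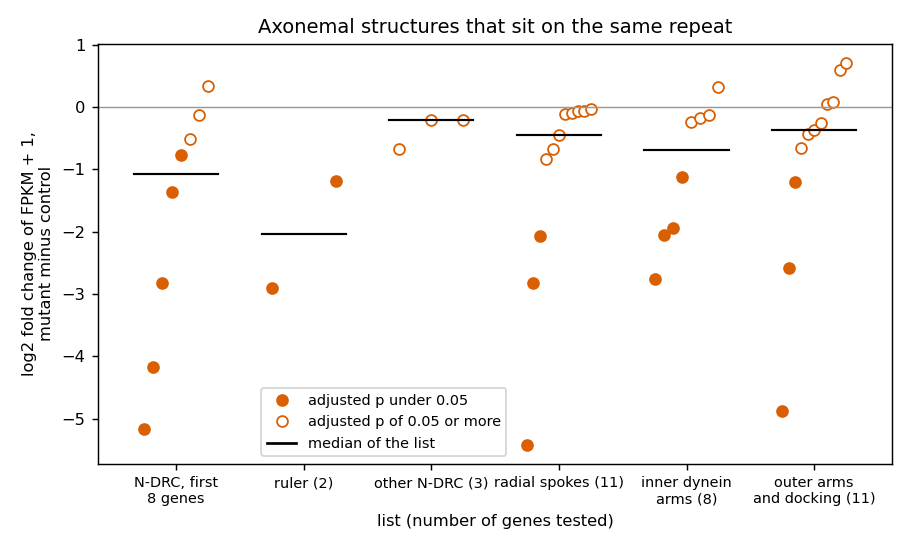
Log2 fold change of FPKM + 1, mutant minus control (y axis), of each gene tested in 6 lists of axonemal genes (x axis), with filled points for an adjusted p under 0.05 and a bar at the median. Each of the lists of spokes and arms spans genes near 0 and genes at -2.76 or lower, and the 3 further N-DRC subunits lie between -0.68 and -0.21.

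The genes outside the list whose profile over the 4 samples lay nearest to the median profile of the 10 genes were Jph4, 4930430A15Rik, Stap2, Rab36 and Ssxb2. Their distances, taken as the Euclidean distance of centred log2(FPKM + 1) values over 4 samples, were between 0.0797 and 0.107. The nearest abundant one, 4930430A15Rik, was at 13.5 and 11.8 in mutant 1 and 2 against 36.0 and 32.6 in control 1 and 2. The other four were low transcripts, with control values of 1.94 to 7.45. With so few samples, such a likeness describes mainly a fall of a given size.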

How the data were processed

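RNA from whole testes of 2 mutant and 2 control mice was sequenced. Per the labels, the reads were aligned with TopHat2 2.0.6 and Cuffdiff was also used, and per the study's methods the build was mm9. The authors deposited FPKM per gene with confidence bounds, normalized for transcript length and depth within a sample. Entries sharing a symbol were summed. A gene was tested if 2 or more of the 4 samples reached an FPKM of 1. The log2(FPKM + 1) values were compared by the limma package 3.58.1 (R 4.3.3) with a mean-variance trend in eBayes, two-sided, with Benjamini-Hochberg adjustment over 12985 genes. The functions were tested on simulated data. Fragments behind a value were estimated from the confidence bounds, and below 30 fragments they came out whole (within 0.02) in 76.4% to 78.0% of entries, so they are estimates and cover counting error only. The genes and lists were chosen with earlier results of these data known. Named genes are the 10 members, the further subunits, Rfx2, the 2 lowest and the highest of each other axonemal list, and the 5 nearest profiles. The other genes that fell in those lists were named after their values were seen. Of 106 list genes, 4 were matched by a synonym and 6 were not analysed here. Exact permutation tests used scipy 1.17.1. Alternatives were other pseudocounts, filters, scalings, variance models and X-box searches, the highest entry of a symbol, a replicate block, and each sample left out. A crossed replicate block and limma-voom on the estimated fragments were added after seeing the data.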

Additional observations from a re-analysis of the deposited data

How the results depend on the processing

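The falls of Ccdc164, Ccdc65, Ccdc135, Ccdc39 and Ccdc40 kept their direction and passed the threshold in all 12 alternatives with 4 samples. Among these alternatives, taking the highest entry of a symbol in place of the sum leaves the values of the 10 genes unchanged. Each of them has a single entry. Gas8 passed in 8 and Lrrc48 in 3 of the 12, so 5 to 7 of the 10 genes were called. For Lrrc48 these were robust eBayes, the replicate block and the highest entry. The log2 fold change of Fbxl13 was -0.99 without mutant 2 and -0.03 without mutant 1. Over the samples left out, Tcte1 ran from -0.32 to 0.060, changing sign without control 1. The median of the 10 genes stayed between -1.38 and -1.18. Over all genes, the 327 lower and 40 higher calls became 199 and 17 without a filter, 202 and 17 with a filter at an FPKM of 5, 206 and 16 with median-ratio scaling and 200 and 16 with limma-voom. Robust eBayes gave 67 higher calls and moved Iqcd past the threshold (adjusted p = 0.0465, limma). Leaving out a sample gave 167 to 948 lower calls (167 without control 1, 948 without mutant 2) and 13 to 162 higher calls (13 without control 2, 162 without mutant 1, 102 without mutant 2, 17 without control 1), with a lone sample assumed to vary like the other group. Rfx2 missed the threshold without a filter (-1.43, adjusted p = 0.0607, limma), with median-ratio scaling (-1.45, 0.0829), with limma-voom (-1.70, 0.218) and without control 1, with -1.66 to -1.20 over the samples left out. Allowing 1 mismatch raised the genes with an X-box from 3 to 8. The cause of these changes was not tested.

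The replicate block from the labels gave 525 lower and 70 higher calls and 7 of the 10 genes, but same-numbered samples deviated from their group means with a correlation of -0.15, so the numbers are not shown to pair the samples. The crossed replicate block gave 266 and 28 calls and 5 of the 10 genes. With 4 samples these fits, and those that leave out a sample, have little to estimate the spread, and some of their p-values are implausibly small. Ccdc164 in mutant 2 rests on about 29 fragments, which limits the precision of its fold change.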

Other observations

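Markers of tissue next to the germ cells varied within a genotype. Crisp1, an epididymal gene, had an FPKM of 6.99 in mutant 1 and 3.19 in control 2, against 0.0320 in mutant 2 and 0 in control 1. Insl3, a hormone of Leydig cells, was at 326 in mutant 1, 157 in mutant 2, 266 in control 1 and 51.5 in control 2. Neither followed genotype.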
